A study of Mus musculus with 12 samples.

Results

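The BCL2 family genes examined here were Bcl2, Bcl2l1, Mcl1, Bax, Bak1, Bid, Bad, Bcl2l11, Bbc3 and Pmaip1. They were chosen by gene symbol, each symbol matched 1 gene, and they are 10 of the 29838 genes in the deposited expression table. Transcripts were measured by RNA sequencing in erythroblasts sorted from the bone marrow of wild-type (WT) male C57BL/6 mice of 8 weeks. There were 3 libraries for each of 4 stages of terminal erythroid differentiation, in the order of maturation the proerythroblast (Pro) and the basophilic (Baso), polychromatic (Poly) and orthochromatic (Ortho) erythroblast. All 4 stages shared the genotype and carried no treatment, and all came from marrow depleted with CD45 MicroBeads and from a sort of viable cells negative for CD45, CD11b and GR1. Pro were gated as CD44 high and Ter119 low, and the later stages were split among Ter119 positive cells by CD44 and forward scatter. The cell type field of Ortho replicates 2 and 3 names erythroblasts without a stage, and their titles placed them in Ortho.

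Proteins of the BCL2 family decide whether the outer membrane of the mitochondrion is breached, which releases cytochrome c and starts the caspases. The survival proteins BCL2, BCL-XL (encoded by Bcl2l1) and MCL1 hold the pore-forming effectors BAX and BAK in check, and the BH3-only proteins BID, BAD, BIM (Bcl2l11), PUMA (Bbc3) and NOXA (Pmaip1) oppose the survival proteins or activate the effectors. BCL-XL is known as the survival protein of late erythroblasts, while MCL1 is needed earlier in the lineage.

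Levels are given as FPKM (fragments mapped to a gene, scaled to transcript length and to all mapped fragments of the library), which takes gene length into account, so that genes can be compared with each other. The test was limma on log2(FPKM + 1), run over all 12994 genes that reached 1 FPKM or more in 3 or more libraries, and all 10 members passed this filter. A gene is said to have risen or fallen where its p-value, adjusted by the Benjamini-Hochberg method over all genes tested, was under 0.05. A call also needed a log2 fold change of 1 or more in either direction. The sources do not say that the libraries of a stage came from separate animals, so the p-values measure the spread between these libraries, which may be technical. With 3 libraries against 3, exact permutation cannot go below a two-sided p of 0.1, and it was not used.

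FPKM is a share of each library, and hemoglobin took a growing part of it. The 12 hemoglobin genes held 8.45% ± 1.95 of the summed FPKM in Pro (SD, n = 3), 35.1% ± 1.79 in Baso, 36.6% ± 1.56 in Poly, and 49.6% ± 2.74 at the Ortho stage. Over all genes tested, the median log2 fold change lay below 0 against Pro, at -0.23 in Baso and -0.2 in Poly, with -0.42 in Ortho, and it is given beside the members. Pro replicate 2 had the most hemoglobin of its stage (10.66% against 7.7% and 6.98%). The 6 erythroid markers were all expressed, with a summed FPKM of 1676.4 to 2265.1 in Pro and 4658.4 to 4994.5 in Ortho. All 8 neutrophil markers were also expressed despite the CD11b and GR1 gate and all rose against Pro in each later stage. Their summed FPKM was 7040.7 to 8894.9 in Pro and 14029.7 to 17430.6 in Ortho. The 5 B cell markers summed to 40.0 to 64.1 in Pro and 109.3 to 138.8 in Ortho. Of the macrophage list (59.9 to 70.3 in Ortho) C1qa, C1qb and C1qc were not tested for low values, and of the T and NK cell list (32.1 to 37.8 in Ortho) only Nkg7 was tested. The 5 megakaryocyte markers summed to 66.5 to 121.1 in Pro and 35.8 to 45.2 in Ortho. In Ortho against Pro 4 of them fell and 1 rose (Itga2b, 0.39, limma adjusted p = 0.0338), beside 53.2% and 22.7% of all genes. In such sorted bulk samples fewer cells of a type and less RNA per cell cannot be told apart.

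Between Pro and Baso 6 of 10 members passed the test, a share close to that of all genes, of which 14.9% rose and 42.1% fell. Bcl2l1 rose from a mean of 12.7 FPKM in Pro to 148 FPKM in Ortho and became the most abundant member. Bax, Bak1, Bid and Bcl2l11 fell between Pro and Baso. Mcl1 was high in every stage. Bcl2 rose at a low level, and Bad, Bbc3 and Pmaip1 did not pass the test between Pro and Ortho.

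**Figure D1:**
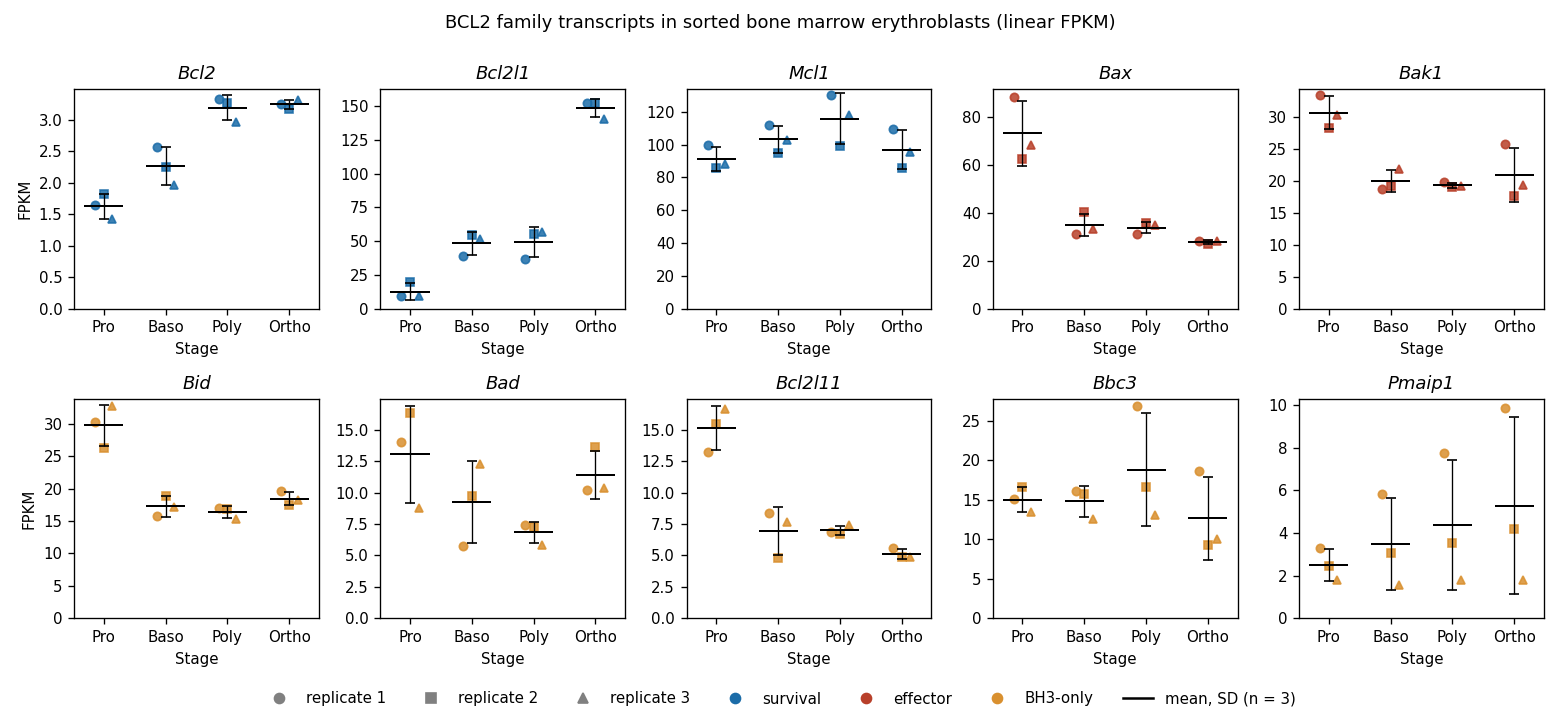
FPKM (linear axis) of the 10 members in the 12 libraries, by stage, with 1 panel per gene and 1 symbol per replicate number. A bar marks the mean of the 3 libraries, with the SD. Bcl2l1 climbs from 9.08 to 19.7 in Pro to 141 to 153 in Ortho, while Bax, Bak1, Bid and Bcl2l11 are highest in the 3 Pro libraries.

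In Baso against Pro, 2 of the 10 members rose (Bcl2 and Bcl2l1), 4 fell (Bax, Bak1, Bid and Bcl2l11) and 4 did not pass the test. Over all genes tested 14.9% rose and 42.1% fell. At the call threshold 1 member was higher (Bcl2l1) and 2 were lower (Bax and Bcl2l11), against 1.82% and 8.54% of all genes. The libraries of Baso and Pro did not overlap for 6 members (2 higher, 4 lower), as in 16.8% of all genes with Baso higher and 44.2% with Baso lower. The median log2 fold change of the members was -0.24, against -0.23 for all genes.

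Poly against Pro gave 3 members that rose (Bcl2, Bcl2l1 and Mcl1), 5 that fell (Bax, Bak1, Bid, Bad and Bcl2l11) and 2 that did not pass. Of all genes, 23.3% rose and 42.7% fell. Calls were again 1 higher (Bcl2l1) and 2 lower (Bax and Bcl2l11), where 3.59% and 12.8% of all genes were called. There was no overlap with Pro for 7 members (2 higher, 5 lower), beside 25.3% and 44.5% of all genes. The members' median was -0.2, the same as the median of all genes.

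For Ortho against Pro the counts were 2 risen (Bcl2 and Bcl2l1), 4 fallen (Bax, Bak1, Bid and Bcl2l11) and 4 not past the test, beside 22.7% and 53.2% of all genes. The calls were Bcl2l1 higher and Bax and Bcl2l11 lower, where 6.33% of all genes were called higher and 23.8% lower. For 6 members (2 higher, 4 lower) Ortho and Pro did not overlap, which held for 23.2% of all genes in the higher and 53.6% in the lower direction. Here the members' median of -0.22 stood above the median of all genes of -0.42. These 3 comparisons share the Pro libraries and are not independent of each other.

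Between Baso and Poly 1 member rose (Bcl2), none fell and none was called by limma, and at an unadjusted p under 0.05 the counts were 1 higher and 0 lower. At this step 6.58% of all genes rose and 5.77% fell, and 0.0616% and 0.454% were called. Only Bcl2 had no overlap between the libraries of these stages (higher in 20.5% of all genes, lower in 15.9%). From Poly to Ortho 1 member rose and was called (Bcl2l1), and none fell by limma without a replicate block. At an unadjusted p under 0.05 that fit gave 2 higher (Bcl2l1 and Bad) and 2 lower (Bax and Bcl2l11). With the replicate number as a block over Baso, Poly and Ortho, Mcl1, Bax and Bbc3 fell by limma (adjusted p = 0.00699, 0.0456 and 0.0453). Without a block 4.43% of all genes rose at this step and 21.7% fell by the adjusted p, and 1.05% were called higher and 4.81% lower. For neither step was the share of all genes at an unadjusted p computed, nor the share that fell in the block fit. The libraries of Ortho and Poly did not overlap for 5 members (Bcl2l1, Bax, Bid, Bad and Bcl2l11), a state that 11.3% of all genes reached with Ortho higher and 31.3% with Ortho lower.

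**Figure D2:**
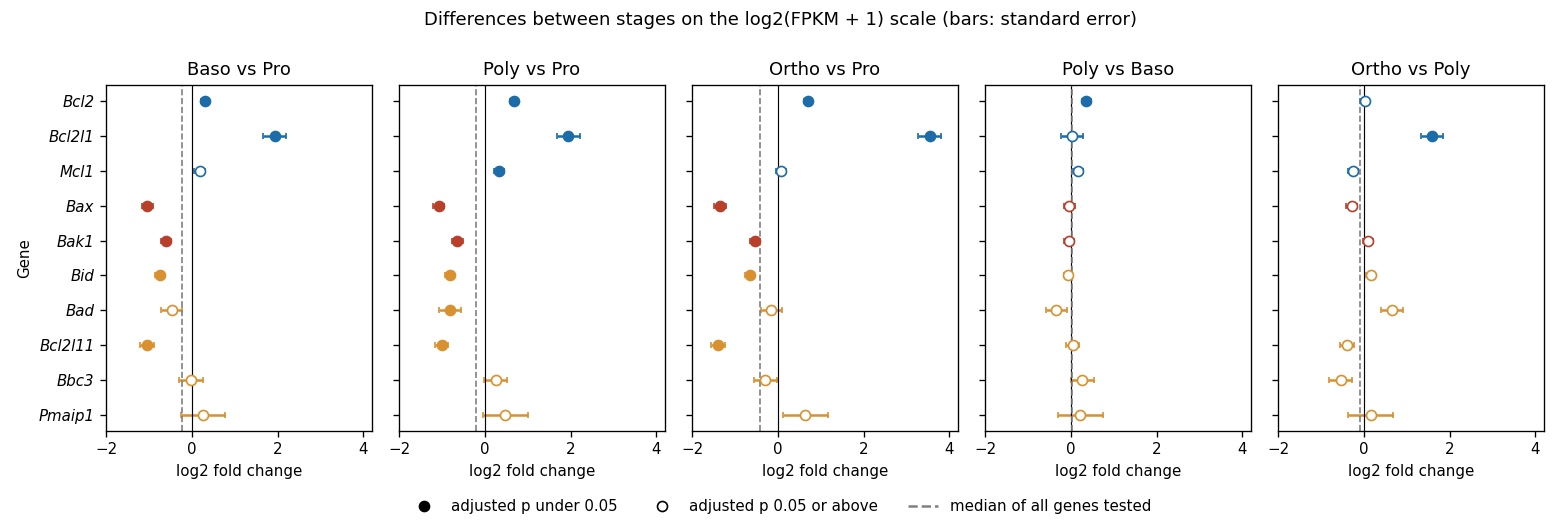
Log2 fold change on the log2(FPKM + 1) scale for the 10 members in the 5 stage comparisons, with standard errors, filled symbols for an adjusted p under 0.05 and a dashed line at the median of all genes tested. Bcl2l1 reaches 3.54 in Ortho against Pro, and Bax and Bcl2l11 lie below -1 in each comparison with Pro.

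The bases before the start of 3 members are shown because these genes took different courses over the same stages, with Bcl2l1 rising, Mcl1 high in each stage and Bax falling. They are 250 bases from the RefSeq annotation of GRCm38.p6, 5′ to 3′ on the strand of the gene, with capitals for the GC box (GGGCGG on either strand, bound by SP and KLF factors). Here and below, each window lies before the most upstream start given for its gene, and the start used in these cells was not determined. The windows are chr2:152831729-152831978 (minus strand) for Bcl2l1, chr3:95658471-95658720 (plus strand) for Mcl1 and chr7:45466899-45467148 (minus strand) for Bax.
Bcl2l1: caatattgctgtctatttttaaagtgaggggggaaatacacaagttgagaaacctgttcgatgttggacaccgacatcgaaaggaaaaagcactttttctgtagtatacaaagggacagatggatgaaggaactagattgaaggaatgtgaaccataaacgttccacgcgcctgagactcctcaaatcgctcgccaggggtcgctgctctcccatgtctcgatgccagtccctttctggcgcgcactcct
Mcl1: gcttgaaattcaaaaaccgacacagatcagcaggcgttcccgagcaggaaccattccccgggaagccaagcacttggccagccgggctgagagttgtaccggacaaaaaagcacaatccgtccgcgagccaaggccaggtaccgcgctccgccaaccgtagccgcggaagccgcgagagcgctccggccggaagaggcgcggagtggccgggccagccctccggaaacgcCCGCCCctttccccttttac
Bax: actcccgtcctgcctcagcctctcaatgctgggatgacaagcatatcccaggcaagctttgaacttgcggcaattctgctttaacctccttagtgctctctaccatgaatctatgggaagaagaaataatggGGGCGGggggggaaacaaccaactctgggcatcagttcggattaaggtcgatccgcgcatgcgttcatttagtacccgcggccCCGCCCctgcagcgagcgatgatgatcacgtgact

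Of the 10 members 9 matched a RefSeq promoter, and no promoter was matched for Pmaip1. GC content of these windows was 47.6% for Bcl2l1, 64.4% for Mcl1 and 54.0% for Bax, against a median of 52.0% over 27026 promoters. Among the other members with a promoter it ran from 58.4% (Bak1) to 76.4% (Bbc3). The windows of Bak1 and Bbc3 lay within the gene positions given below, and those of Bak1 and Bid held exon bases. The GC box was found in 7 of the 9 members and in 33.0% of all promoters, and Bcl2l1 and Bak1 had none. The KLF motif CCNCNCCC was found in 6 of 9 members and 45.6% of all promoters, and its matches can overlap a GC box. The motif CCAAT was found in 1 member (Bcl2l11) and 34.5% of all. No window of the 9 held a GATA motif (AGATAA or TGATAA, 16.9% of all), a STAT motif (TTCNNNGAA, 7.1% of all) or an E2F motif (TTTCCCGC or TTTGGCGC, 1.4% of all), where both strands were searched for each motif. A match describes only these letters in this window.

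Of the survival genes, Bcl2l1 (ENSMUSG00000007659; chr2:152780668-152831728 on the minus strand of mm10, protein coding, 5 exons after merging transcripts) changed most. It encodes BCL-XL, and the table does not separate its long form from the short form made by another splice site. FPKM was 9.22, 19.7 and 9.08 in Pro replicates 1 to 3, 38.9, 54.5 and 51.9 in Baso, 36.9, 55.3 and 56.6 in Poly, and 152, 153 and 141 in Ortho. Every Baso and Poly library was above every Pro library and every Ortho library above all others, whereas Baso and Poly overlapped. The stage means were 12.7 ± 6.11, 48.4 ± 8.36, 49.6 ± 11.0 and 148 ± 6.77 (SD, n = 3). Mean FPKM was 3.82 times that of Pro in Baso and 11.7 times in Ortho, and Ortho was 2.99 times Poly.

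On the log2(FPKM + 1) scale Bcl2l1 rose by 1.93 in Baso against Pro (SE 0.26, limma adjusted p = 7.84e-05), by 1.95 in Poly (adjusted p = 4.98e-05) and by 3.54 in Ortho (adjusted p = 2.42e-07). The rise thus came in 2 steps, since Poly against Baso gave 0.02 (adjusted p = 0.967) and Ortho against Poly 1.59 (adjusted p = 0.000567). Few genes of any kind were called between Baso and Poly (0.0616% higher and 0.454% lower in Poly). The mean of Bcl2l1 exceeded that of 56.0% of the tested genes in Pro, of 89.1% in Baso, of 89.8% in Poly and of 97.2% in Ortho. Pro replicate 2, the Pro library with the most hemoglobin, also had the most Bcl2l1, and without it the log2 fold change against Pro was 2.27 in Baso and 2.29 in Poly, and that of Ortho was 3.88.

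Mcl1 (ENSMUSG00000038612; chr3:95658788-95663176, plus strand, 3 exons) encodes a survival protein that is broken down within a short time of its synthesis. Its FPKM was 99.9, 85.6 and 88.3 in Pro, 112, 95.1 and 103 in Baso, 130.2, 99.2 and 118 in Poly, and 109.6, 85.8 and 95.5 in Ortho. The stages overlapped in each comparison, and replicate 1 was the highest and replicate 2 the lowest of every stage. Mcl1 rose by 0.33 in Poly against Pro (SE 0.12, limma adjusted p = 0.0259), while the log2 fold change was 0.18 in Baso (adjusted p = 0.22) and 0.08 in Ortho (adjusted p = 0.538). The value in Ortho against Pro was -0.28 after rescaling every library to the same FPKM sum, and 0.57 (adjusted p = 0.000867) with hemoglobin genes left out, so its direction depended on the scaling. In Baso against Pro the same settings gave 0 and 0.49 (adjusted p = 0.993 and 0.00402). The rise in Poly was not past the threshold without Pro replicate 2, Pro replicate 3, Poly replicate 1 or Poly replicate 3 (adjusted p = 0.0687 to 0.109), nor after rescaling to the same sum (0.16, adjusted p = 0.329). Without the filter on low values its adjusted p was 0.0675.

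The fall of Mcl1 between Poly and Ortho differed between the fits. Its log2 fold change was -0.25 with an adjusted p of 0.155 by limma without a block. With the replicate number as a block over Baso, Poly and Ortho the adjusted p was 0.00699. In that block fit only, the numbers of these stages were treated as paired, from the values alone. Mcl1 was lower in Ortho than in the Poly library of the same number for each of the 3 numbers. Its mean exceeded that of 93.8% of the tested genes in Pro and of 95.9% in Ortho.

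Bcl2 (ENSMUSG00000057329; chr1:106538178-106714274, minus strand, 2 exons), the founding member of the family, was the survival gene with the lowest level. FPKM was 1.64, 1.81 and 1.42 in Pro, 2.57, 2.25 and 1.96 in Baso, 3.33, 3.27 and 2.96 in Poly, and 3.25, 3.18 and 3.32 in Ortho. Pro lay below every other stage and Baso below Poly, and Poly and Ortho overlapped. Bcl2 rose by 0.31 in Baso (SE 0.1, limma adjusted p = 0.0236), 0.68 in Poly (adjusted p = 0.000152) and 0.7 in Ortho (adjusted p = 7.97e-05) against Pro, and by 0.36 in Poly against Baso (adjusted p = 0.0436). The rise from Pro to Baso was not past the threshold without Pro replicate 3, Baso replicate 1 or Baso replicate 2 (adjusted p = 0.051 to 0.0918). That from Baso to Poly was lost without any single library of Poly or Ortho or without Baso replicate 2 or 3 (adjusted p = 0.0586 to 0.144). With all libraries kept it was also lost without the filter (adjusted p = 0.0702), after rescaling to the same FPKM sum (0.0575) and after centring (0.0763). With a pseudocount of 0.1 it was just past the limit (adjusted p = 0.05 after rounding, not under it). Rescaling to the same FPKM sum gave 0.2 in Baso against Pro (adjusted p = 0.139). At these levels the added 1 FPKM understates the fold, and mean FPKM in Ortho was 2.0 times that in Pro. Exons of Bcl2 overlap D630008O14Rik on the opposite strand over 558 bases.

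Neutrophil, B cell and macrophage markers were also higher in summed level in each later stage than in Pro. From Poly to Ortho, where Bcl2l1 rose, 0 of the 8 neutrophil and 0 of the 5 B cell markers rose. Of the 3 macrophage markers tested, 2 rose at that step. Neutrophil markers were 12226.7 to 14404.4 in Baso and 15786.8 to 18776.6 in Poly, and B cell markers 73.9 to 87.1 and 99.5 to 126.7. Macrophage markers were 26.1 to 31.5 in Pro, 35.8 to 37.9 in Baso, 45.2 to 50.9 in Poly and highest in Ortho, where Csf1r (1.11, limma adjusted p = 4.55e-06) and Cd68 (1.19, adjusted p = 1.23e-06) were called higher than in Pro and Adgre1 rose (0.88, adjusted p = 8.59e-05). Their part in the values of Bcl2, Bcl2l1, Mcl1 and the other members was not tested.

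The effector Bax (ENSMUSG00000003873; chr7:45461697-45466898, minus strand, 5 exons) fell at the first step. BAX resides in the cytosol and forms pores once it moves to the mitochondrion. FPKM was 88.7, 62.7 and 68.6 in Pro, 31.4, 40.4 and 33.2 in Baso, 31.2, 35.7 and 34.9 in Poly, and 28.1, 26.9 and 28.3 in Ortho. All Pro libraries were above all others, Baso and Poly overlapped, and the Ortho libraries were the lowest. Bax fell by 1.04 in Baso (SE 0.13, limma adjusted p = 3.9e-05), 1.08 in Poly (adjusted p = 2.05e-05) and 1.35 in Ortho (adjusted p = 1.73e-06) against Pro, and mean FPKM in Pro was 2.64 times that in Ortho. Relative to the median of all genes these were changes of -0.81, -0.87 and -0.93. Without Pro replicate 1 the change was -0.9 in Baso and -0.93 in Poly, and without Baso replicate 1 it was -0.97 in Baso, which is under the call threshold.

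Ortho against Poly gave a log2 fold change of -0.28 for Bax (adjusted p = 0.14 by limma), and the adjusted p was 0.0456 with the replicate number as a block over Baso, Poly and Ortho. The exons of Bax share 192 bases with those of Gm45808 on the same strand.

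Bak1 (ENSMUSG00000057789; chr17:27019810-27029009, minus strand, 7 exons) encodes BAK, the effector that sits in the outer mitochondrial membrane. FPKM was 33.5, 28.3 and 30.3 in Pro, 18.7, 19.1 and 21.9 in Baso, 19.8, 19.0 and 19.1 in Poly, and 25.7, 17.7 and 19.4 in Ortho. Pro was above all other libraries, and the later stages overlapped, with Ortho replicate 1 above the rest of them. Bak1 fell by 0.6 in Baso (SE 0.12, limma adjusted p = 0.00152), 0.64 in Poly (adjusted p = 0.000743) and 0.54 in Ortho (adjusted p = 0.00168), which relative to the median of all genes was -0.37, -0.44 and -0.12. With hemoglobin genes left out the value in Ortho was -0.07 (adjusted p = 0.595). Exons of Bak1 overlap 2 other genes, by 437 bases with Ggnbp1 on the opposite strand, whose reads cannot be told apart without strand information.

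Bid (ENSMUSG00000004446; chr6:120891930-120916853, minus strand, 9 exons) encodes the BH3-only protein that caspase-8 cleaves, which links death receptors to mitochondria. FPKM was 30.2, 26.3 and 32.7 in Pro, 15.7, 18.9 and 17.1 in Baso, 16.9, 16.9 and 15.3 in Poly, and 19.6, 17.5 and 18.3 in Ortho. Pro stood above the other stages without overlap, and Ortho lay slightly above Poly. Bid fell by 0.75 in Baso (SE 0.1, limma adjusted p = 5.46e-05), 0.82 in Poly (adjusted p = 1.97e-05) and 0.66 in Ortho (adjusted p = 6.58e-05). In Ortho against Poly the value was 0.16 (adjusted p = 0.273), and 0.3 with hemoglobin genes left out (adjusted p = 0.0247). Relative to all genes the change in Ortho against Pro was -0.23, and with hemoglobin genes left out it was -0.19 (adjusted p = 0.0788). Exons of Bid overlap Bcl2l13 on the opposite strand over 628 bases.

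Bcl2l11 (ENSMUSG00000027381; chr2:128126038-128162547, plus strand, 6 exons) encodes BIM, which binds all survival proteins and is held down by growth factor signalling. FPKM was 13.3, 15.5 and 16.7 in Pro, 8.38, 4.82 and 7.62 in Baso, 6.88, 6.73 and 7.39 in Poly, and 5.57, 4.89 and 4.88 in Ortho. All Pro libraries were higher than all later ones, Baso overlapped both Poly and Ortho, and Ortho was below Poly. Bcl2l11 fell by 1.05 in Baso (SE 0.16, limma adjusted p = 0.000179), 1.01 in Poly (adjusted p = 0.00017) and 1.4 in Ortho (adjusted p = 8.05e-06) against Pro. It was under the call threshold in Baso without Pro replicate 3 (-0.98) or Baso replicate 2 (-0.84), and in Poly without Pro replicate 2 (-0.99), Pro replicate 3 (-0.94), Poly replicate 2 (-0.98) or Poly replicate 1 (just under the threshold, -1 after rounding). In Ortho against Poly it was -0.39 (adjusted p = 0.0965), and it passed the test without Baso replicate 2 (adjusted p = 0.0138) and after rescaling to the same FPKM sum (-0.55, adjusted p = 0.0222). Its mean in Pro was 2.96 times that in Ortho, and the share of tested genes with a lower mean went from 60.6% to 39.8%.

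Bad (ENSMUSG00000024959; chr19:6941861-6951899, plus strand, 4 exons) encodes the BH3-only protein that survival signals inactivate by phosphorylation. FPKM was 14.0, 16.3 and 8.77 in Pro, 5.74, 9.74 and 12.2 in Baso, 7.42, 7.24 and 5.85 in Poly, and 10.2, 13.6 and 10.4 in Ortho. Poly was below every Pro and every Ortho library, and the other stages overlapped. Bad fell by 0.81 in Poly against Pro (SE 0.25, limma adjusted p = 0.0146), and the log2 fold change was -0.47 in Baso (adjusted p = 0.134) and -0.15 in Ortho (adjusted p = 0.602), the latter at 0.31 with hemoglobin genes left out. The value in Baso ranged from -0.19 without Baso replicate 1 to -0.71 without Pro replicate 3 (adjusted p = 0.0326), and it also passed without Baso replicate 3 (-0.68, adjusted p = 0.0454) and after rescaling to the same FPKM sum (-0.64, adjusted p = 0.0453). In Poly it reached the call threshold without Pro replicate 3 (-1.05, adjusted p = 0.00381). The fall in Poly was not past the test's threshold without Pro replicate 2 (-0.63, adjusted p = 0.0614) or Poly replicate 3 (-0.71, adjusted p = 0.0519), nor with hemoglobin genes left out (-0.51, adjusted p = 0.117). This fall was also lost without the filter (adjusted p = 0.0532) and with libraries centred on their median (-0.56, adjusted p = 0.0744). In Ortho against Poly the value was 0.66 (adjusted p = 0.0817), and it passed with hemoglobin genes left out (0.82, adjusted p = 0.0422), with libraries centred on their median (0.81, adjusted p = 0.0375), and without Pro replicate 3 (adjusted p = 0.0485) or Baso replicate 1 (adjusted p = 0.0349). Exons of Bad overlap Gpr137 on the opposite strand over 524 bases.

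Bbc3 (ENSMUSG00000002083; chr7:16308393-16318205, plus strand, 6 exons) encodes PUMA, a target of p53. FPKM was 15.1, 16.6 and 13.4 in Pro, 16.1, 15.7 and 12.6 in Baso, 26.8, 16.6 and 13.02 in Poly, and 18.7, 9.25 and 9.97 in Ortho. The stages overlapped in each comparison, and replicate 1 was the highest in Baso, Poly and Ortho. With all libraries kept, none of its log2 fold changes passed the limma test without a block. That of Baso against Pro was -0.02 (SE 0.27, adjusted p = 0.944), and it turned to 0.28 with hemoglobin genes left out. That of Ortho against Poly was -0.54 (adjusted p = 0.179), with an adjusted p of 0.0453 when the replicate number was a block over Baso, Poly and Ortho. Without Ortho replicate 1 the test was passed in Ortho against Pro (-0.59, adjusted p = 0.0418) and against Poly (-0.84, adjusted p = 0.0246). Against Poly the value was -0.27 without Poly replicate 1, and against Pro it was -0.12 without Ortho replicate 2 and -0.17 without Ortho replicate 3.

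Pmaip1 (ENSMUSG00000024521, on chromosome 18, 3 exons) encodes NOXA, a partner of MCL1. FPKM was 3.3, 2.43 and 1.78 in Pro, 5.82, 3.08 and 1.55 in Baso, 7.74, 3.52 and 1.81 in Poly, and 9.86, 4.17 and 1.78 in Ortho. In each stage replicate 1 was the highest and replicate 3 the lowest. The stages overlapped in each comparison. The log2 fold change in Ortho against Pro was 0.64 (SE 0.52, limma adjusted p = 0.279), and it ranged from 0.14 without Ortho replicate 1 to 1.12 without Ortho replicate 3 (adjusted p = 0.817 and 0.0701).

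The order of the members by FPKM differed between stages mainly in the place of Bcl2l1. In Pro, Mcl1 and Bax led with overlapping ranges, Bak1 and Bid came next without overlap to them, then Bcl2l11, Bbc3, Bad and Bcl2l1, whose ranges overlapped from neighbour to neighbour, and last Pmaip1 and Bcl2. Bcl2l1 was eighth in Pro by mean FPKM. In Baso, Mcl1 stood alone at the top, Bcl2l1 and Bax overlapped, and Bak1, Bid and Bbc3 formed the next group. In Poly, Mcl1, Bcl2l1 and Bax were apart from each other in this order. In Ortho the order was Bcl2l1, Mcl1 and Bax, again without overlap between neighbours, then Bak1, Bid, Bbc3 and Bad with overlapping ranges, then Pmaip1 and Bcl2l11, and Bcl2 at the end.

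A ratio of 2 members in the same library does not depend on how the library is scaled. The FPKM ratio of Bcl2l1 to Mcl1 was 0.0923, 0.230 and 0.103 in Pro, 0.348, 0.573 and 0.504 in Baso, 0.283, 0.558 and 0.480 in Poly, and 1.39, 1.78 and 1.47 in Ortho. Mcl1 transcripts thus exceeded Bcl2l1 transcripts in each library of the first 3 stages, and the reverse held in each Ortho library. The mean ratio of Bcl2l1 to Bcl2 was 7.63 at the Pro stage, then 21.9 in Baso, 15.7 in Poly and lastly 45.8 in Ortho.

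Against the effector Bax, the ratio of Bcl2l1 went from a mean of 0.184 ± 0.114 in Pro to 1.39 ± 0.165 in Baso and 1.45 ± 0.235 in Poly, and to 5.36 ± 0.354 in Ortho (SD, n = 3). Bax transcripts exceeded Bcl2l1 transcripts in the Pro libraries, and the reverse held in each later one. The ratio of Mcl1 to Bax went from 1.26 ± 0.123 in Pro to 3.01 ± 0.610 in Baso, and was 3.49 ± 0.365 in Ortho.

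**Figure D3:**
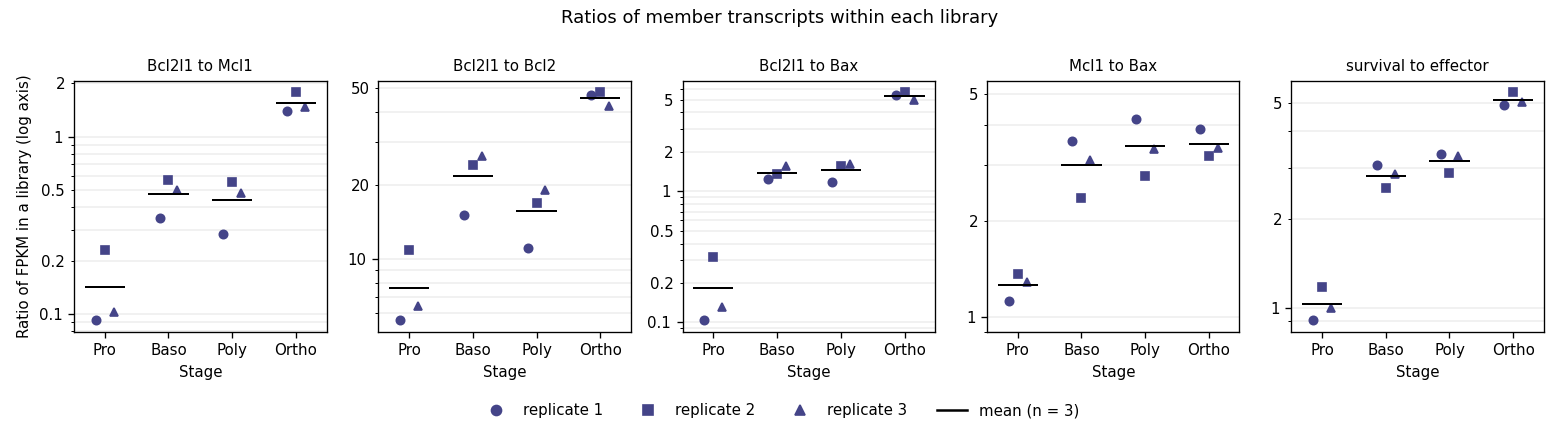
Ratios of FPKM within each library (log axes) for 4 pairs of members and for the summed survival genes over the summed effector genes, by stage, with 1 symbol per replicate number and a bar at the mean of 3 libraries. The ratio of Bcl2l1 to Mcl1 is above 1 in the Ortho libraries only, and the survival to effector ratio rises from 1.03 in Pro to 5.12 in Ortho.

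Summed by role, the 3 survival genes summed to 105.6 ± 6.14 FPKM, 154 ± 2.61, 168.6 ± 9.99 and 248.7 ± 14.2 from Pro to Ortho (SD, n = 3). The 2 effectors had 104 ± 16.2, 54.9 ± 4.72, 53.2 ± 1.99 and 48.7 ± 4.75, and the 5 BH3-only genes 75.4 ± 1.91, 51.7 ± 0.531, 53.4 ± 11.4 and 52.9 ± 9.74. Survival transcripts thus grew from 37.1% to 71.1% of the summed FPKM of the members, while effectors went from 36.4% to 13.9% and BH3-only genes from 26.6% to 15.0%. Within the survival sum Bcl2l1 held 11.97% in Pro, then 31.5% in Baso, 29.5% in Poly and finally 59.8% in Ortho. The survival to effector ratio was 0.906, 1.18 and 0.999 in Pro, 3.06, 2.55 and 2.85 in Baso, 3.34, 2.88 and 3.29 in Poly, and 4.92, 5.42 and 5.03 in Ortho. Each later library was above each Pro library, and the Ortho libraries were above all others.

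The size of the changes against Pro depended on the treatment of hemoglobin. When the 12 hemoglobin genes were removed before rescaling, the log2 fold change in Ortho against Pro was 4.05 for Bcl2l1, -0.88 for Bax and -0.99 for Bcl2l11, and the median of all genes was -0.03. With each library centred on its median the values of Bax and Bcl2l11 were -0.96 and -1, and neither gene was called. Over all genes the calls in Ortho against Pro were 823 higher and 3092 lower as deposited, and 2265 higher and 1285 lower with hemoglobin left out. The adjusted p of Bcl2l1, Bax and Bcl2l11 stayed under 0.05 in each of these scalings.

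**Figure D4:**
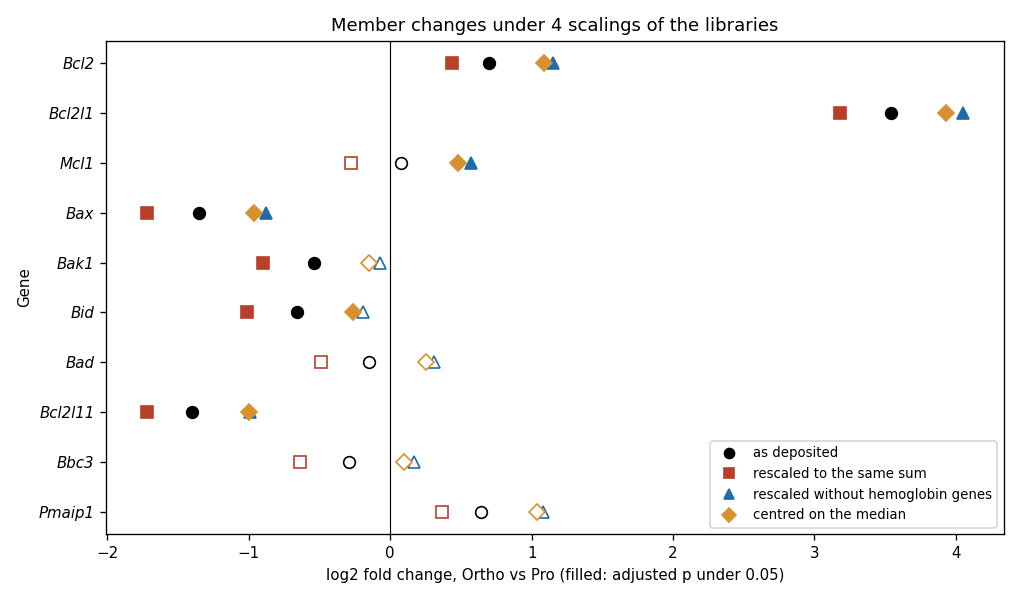
Log2 fold change in Ortho against Pro for the 10 members under 4 scalings of the libraries, namely as deposited, rescaled to the same FPKM sum, with hemoglobin genes left out and centred on the median. Bcl2l1 lies between 3.18 and 4.05, Bax and Bcl2l11 are below 0 under all 4, and Mcl1, Bad and Bbc3 change sign.

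Among the 6011 tested genes with a mean of at least 10 FPKM, those most like Bcl2l1 over the 12 libraries were Bnip3l-ps (Pearson r of log2(FPKM + 1) = 0.987), Ypel4 (0.986), Cdkl1 (0.986), Fam220a (0.985) and Bpgm (0.982). Bnip3l-ps is a pseudogene that shares sequence with Bnip3l, and its values are uncertain. Bpgm makes 2,3-bisphosphoglycerate, which lowers the oxygen affinity of hemoglobin. Those most like Mcl1 were Pafah1b1 (0.905), Midn (0.883), Gm16194 (0.877), Slfn4 (0.858) and Adar (0.846). Those most like Bax were Mrpl34 (0.989), Cnpy4 (0.989), Gm12184 (0.989), Ndufc2 (0.988) and Cdk2ap1 (0.988), of which Mrpl34 and Ndufc2 encode parts of the mitochondrial ribosome and of complex I. The 12 libraries fall into 4 stages and share the hemoglobin trend, so these values describe likeness of course only.

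Of 15 other BCL2 family genes listed, 13 were in the table and 7 passed the filter on low values. In Ortho against Pro, 3 of the 7 rose (Bnip3l, Bmf and Bnip3), 2 fell (Bcl2l12 and Bcl2l13) and 2 did not pass (Bcl2l2 at 0.08, adjusted p = 0.818, and Bcl2l15 at -0.19, adjusted p = 0.496, by limma). Of all genes 22.7% rose and 53.2% fell. The median of the 7 was 0.08, against -0.42 for all genes, with 1 called higher and 1 lower (6.33% and 23.8% of all genes). These calls were 3 higher and 0 lower with hemoglobin left out, 2 and 0 with libraries centred, and 2 and 2 with a pseudocount of 0.1. Over all genes the main fit called 823 higher and 3092 lower. In these 3 settings the calls over all genes were 2265 and 1285, 2078 and 1293, and 1397 and 3879. Bnip3l, which encodes NIX, the receptor that marks mitochondria for removal from maturing red cells, went from 51.8 ± 7.67 FPKM in Pro to 106 and 110 in the middle stages and 260 ± 30.5 in Ortho, and rose by 2.31 (SE 0.12, adjusted p = 2.14e-08). As with Bcl2l1, Baso and Poly were close to each other and Ortho higher.

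Bmf, a BH3-only gene, went from 1.99 to 4.85 FPKM (log2 fold change 0.97, adjusted p = 5.7e-05), and Bnip3, a relative of Bnip3l, from 3.59 to 5.66 (0.55, adjusted p = 0.00314). Bcl2l13 fell by 1.4 (adjusted p = 9.79e-06) and Bcl2l12 by 0.98 (adjusted p = 7.73e-05). Bcl2a1a, Bcl2a1b, Bcl2a1d, Bok, Bik and Bcl2l14 did not pass the filter on low values, and Bcl2l10 and Hrk were not matched by symbol. The Bcl2a1 genes are near-identical copies, between which the counting could split reads.

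Of 9 genes listed that act at or after the breach of the mitochondrion (Cycs, Apaf1, Casp9, Diablo, Htra2, Xiap, Vdac1, Vdac2 and Vdac3) 7 fell, 6 of them past the call threshold, none rose by limma (nor at an unadjusted p under 0.05), and Apaf1 and Xiap did not pass the test, in Ortho against Pro, where 53.2% of all genes fell and 23.8% were called lower. Their median was -1.22, against -0.42 for all genes. Diablo, which counters the caspase inhibitor XIAP, went from 22.4 to 7.3 FPKM (-1.52, SE 0.2, adjusted p = 3.18e-05), and Htra2, a mitochondrial protease, from 74.5 to 26.0 (-1.49, adjusted p = 1.67e-07). Vdac1, a channel of the outer mitochondrial membrane, went from 113 to 40.1 FPKM (-1.47, adjusted p = 3.04e-08). With hemoglobin genes left out 2 of the 9 were called lower, and calls lower over all genes went from 3092 to 1285.

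Of 11 genes upstream of the family (Epor, Jak2, Stat5a, Stat5b, Gata1, Foxo3, Trp53, Mdm2, Huwe1, Usp9x and Fbxw7), 1 rose, 8 fell and 2 did not pass in Ortho against Pro, with 1 called higher and 4 lower and a median of -0.53. Of all genes 22.7% rose, 53.2% fell, 6.33% were called higher and 23.8% lower, with a median of -0.42. The upstream genes called lower were 2 with hemoglobin left out or with libraries centred on their median. Over all genes these settings called 1285 and 1293 lower, against 3092 in the main fit. Gata1, the master erythroid transcription factor, went from 131 to 30.9 FPKM (-2.04, limma adjusted p = 6.98e-09). Epor, the erythropoietin receptor, went from 149 to 46.5 (-1.66, adjusted p = 9.83e-09). Neither passed the test between Pro and Baso (Gata1 -0.03, adjusted p = 0.816, and Epor 0.06, adjusted p = 0.495), and Epor was at 168 FPKM in Poly. In Baso against Pro 1 of the 11 rose (Foxo3, 0.82, adjusted p = 1.51e-05) and 3 fell (Stat5a, Huwe1 and Trp53). Of all genes 14.9% rose and 42.1% fell at that step. The part of these genes in the course of Bcl2l1 was not tested. Foxo3, a forkhead factor active in late erythroblasts, went from 45.2 to 102 FPKM and rose by 1.17 (adjusted p = 2.85e-07), but was not called (0.8) after rescaling to the same FPKM sum.

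**Figure D5:**
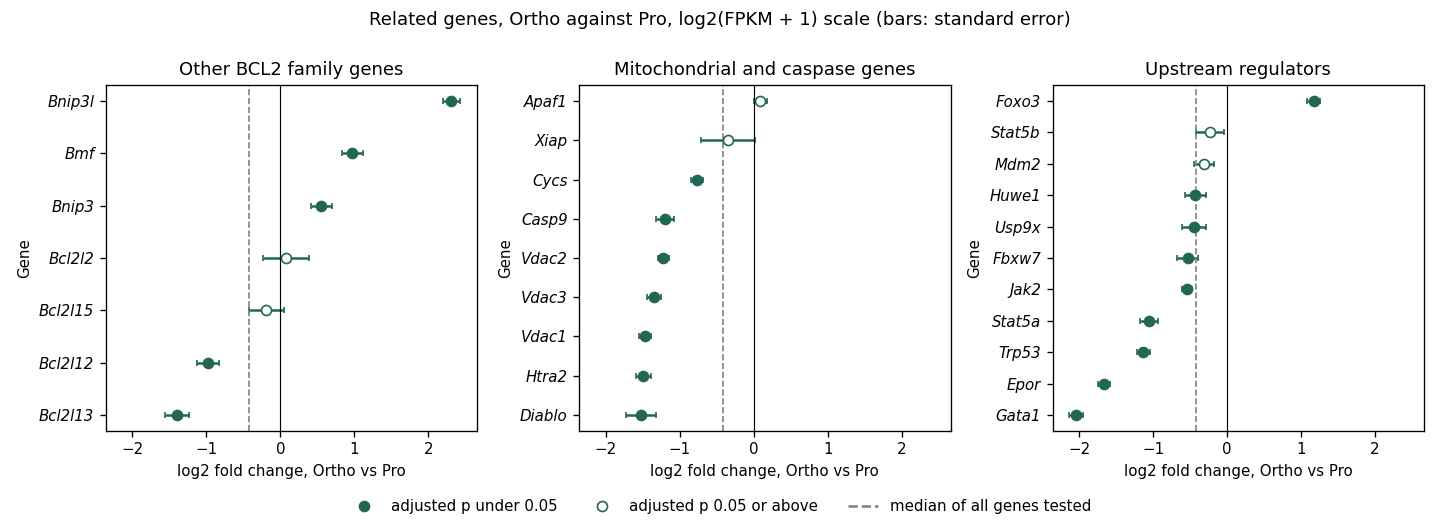
Log2 fold change in Ortho against Pro on the log2(FPKM + 1) scale, with standard errors, for other BCL2 family genes, mitochondrial and caspase genes and upstream regulators; filled symbols have an adjusted p under 0.05 and the dashed line is the median of all genes tested. Bnip3l at 2.31 and Foxo3 at 1.17 stand to the right, while 7 of the 9 mitochondrial and caspase genes lie to the left with filled symbols.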

How the data were processed

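RNA was sequenced from 12 sorted mouse erythroblast libraries, 3 for each of 4 stages. The authors trimmed reads with Cutadapt and Trimmomatic, used HISAT2 for alignment to mm10 and featureCounts for counting, and deposited 1 FPKM value per gene and library. Versions, annotation release and strand setting are not given in the sources used here, and the labels and the paper differ on the lysis reagent and library kit. The table held 29838 genes after 1 repeated identifier was dropped. FPKM are not counts, and low values fell on no common step between libraries (4.12% of 825 low genes in the most common bin), so the depth is unknown and precision is given by the spread between libraries alone.

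Libraries were grouped by their titles. limma 3.58.1 (R 4.3.3) was fitted to log2(FPKM + 1) with a trend of variance on expression, all 12 libraries in 1 model, over 12994 genes with at least 1 FPKM in at least 3 libraries. The comparisons were each later stage with Pro, Poly with Baso and Ortho with Poly. P-values were two-sided and adjusted over all genes tested. On simulated data for these genes the script recovered 98.5% of 200 genes given a log2 change of 2 in either direction in Ortho against Pro. It called 2 unchanged genes. Smaller changes were not simulated, nor was a shift in the hemoglobin share, so this check does not bear on the scaling. Positions and exons were read from GENCODE M21 on mm10 and promoters from RefSeq with Python 3.11.15. The authors' DESeq2 analysis of counts was not repeated.

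All 10 members are named. Of the listed genes, every other BCL2 family gene is named, and of the mitochondrial, caspase and upstream lists the 3 called genes with the highest absolute log2 fold change in Ortho against Pro, plus any called against the direction of its list. Some genes of the mitochondrial and caspase list are not reported here and were taken out of its counts. For Bcl2l1, Mcl1 and Bax the 5 genes of highest correlation are named. The members and lists were chosen with earlier results of these data known.

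Whether replicate numbers pair the libraries was checked by correlating deviations from the stage means. Correlations of same-numbered libraries were 0.156 to 0.319 between Baso, Poly and Ortho, and 0.00524 to 0.0968 with Pro. The fit with a block over Baso, Poly and Ortho treated these stages as paired from the values alone. Pro was treated as paired only in the block over all 12 libraries. The main fit had no block, and counts and p-values came from it unless another setting is named. Correlations of libraries with different numbers were not computed. The settings varied were the pseudocount (0.1 or 5), the filter, the scaling (3 other ways), a replicate block, a call by the adjusted p alone, and the omission of each library.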

Additional observations from a re-analysis of the deposited data

How the results depend on the processing

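Of 370 values of the members recomputed with all libraries kept, 326 kept their direction and side of the threshold, 13 lost it, 18 gained it and 13 changed sign; with 1 library left out the counts were 556, 17, 7 and 20 of 600. Depth could not be recovered, and 3 libraries a stage limit the precision. Bcl2l1 was called higher than Pro in every setting tried. With the adjusted p as the only criterion, members higher and lower numbered 2 and 4 in Baso against Pro, 3 and 5 in Poly against Pro, 2 and 4 in Ortho against Pro, and 1 was higher in Poly against Baso. With a pseudocount of 5 the members called lower were 0 in Baso, 0 in Poly and 1 in Ortho against Pro. Of all genes 453, 875 and 1738 were then called lower, against 1110, 1663 and 3092 in the main fit. With hemoglobin genes left out the members called lower were 0 in all 3 comparisons, with 2 called higher in Poly and 2 in Ortho. Of all genes 482, 838 and 1285 were then called lower in Baso, Poly and Ortho. Calls higher over all genes were 1565 in Poly and 2265 in Ortho, against 467 and 823 in the main fit. With each library centred on its median the members called lower were 0 in all 3, with 2 called higher in Ortho. That setting called 409, 925 and 1293 of all genes lower, and 2078 higher in Ortho. Leaving out 1 library gave 1 to 2 members called lower in Baso and in Poly against Pro. Of all genes 928 to 1345 were then called lower in Baso and 1623 to 1872 in Poly.

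The replicate block over all 12 libraries gave Mcl1 in Baso against Pro an adjusted p of 0.0327, Mcl1 in Ortho against Poly 0.0129 and Pmaip1 in Ortho against Pro 0.0163. Over Baso, Poly and Ortho alone the block gave Mcl1 0.00699, Bax 0.0456 and Bbc3 0.0453 in Ortho against Poly. The block moved no other member across the adjusted p threshold and left the counts of called members as they were.

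Some values changed sign. After rescaling to the same FPKM sum these were, in Ortho against Poly, -0.12 for Bcl2, -0.08 for Bak1 and -0.02 for Bid, in Ortho against Pro -0.28 for Mcl1 and -0.16 for Bcl2l2, and for Mcl1 in Baso against Pro 0. With hemoglobin genes left out they were 0.31 for Bad, 0.17 for Bbc3 and 0.18 for Bcl2l15 in Ortho against Pro and 0.28 for Bbc3 in Baso against Pro; centring gave 0.25, 0.1, 0.21 and 0.27 for these, and -0.03 for Bcl2l1 and -0.01 for Bcl2l11 in Poly against Baso. Leaving out 1 library gave, in Poly against Baso, -0.12 to 0.22 for Bcl2l1, -0.11 to 0.07 for Bax, -0.08 to 0.03 for Bak1, -0.17 to 0.18 for Bcl2l11, 0 to 0.49 for Bbc3 and -0.22 to 0.6 for Pmaip1. In Ortho against Poly the ranges were -0.02 to 0.05 for Bcl2, -0.06 to 0.2 for Bak1 and -0.34 to 0.64 for Pmaip1. Against Pro they were -0.1 to 0.08 for Bbc3 and -0.1 to 0.61 for Pmaip1 in Baso, -0.03 to 0.47 for Bbc3 in Poly, and -0.01 to 0.17 for Mcl1, -0.39 to 0.02 for Bad and -0.1 to 0.4 for Bcl2l2 in Ortho. The cause of these changes was not tested.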
